A study of Rattus norvegicus with 12 samples.

Results

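Wnt proteins act on cells through 2 kinds of surface protein, the Frizzled receptors and their single-pass co-receptors. The 10 genes described here are 7 Frizzled genes (*Fzd1*, *Fzd2*, *Fzd4*, *Fzd5*, *Fzd6*, *Fzd7* and *Fzd8*), the LRP co-receptor genes *Lrp5* and *Lrp6*, and *Ror2*, taken by their symbols from the 21556 genes measured. The rule that picks them is a list of symbols and uses no measured value. They were examined in ND7/23, which serves as a model of sensory neurons and was made by fusing mouse neuroblastoma cells (N18Tg2) with neurons of rat dorsal root ganglia. The data are 12 RNA-seq libraries. Cells had been kept for 6 h as control, with 100 μM menthol, with 100 ng/ml Wnt3a, or with the 2 agents together, and each of these 4 groups had 3 libraries. Menthol activates the cold receptor TRPM8, and Wnt3a activates Wnt/β-catenin signaling. By the study's methods, the cells of such experiments were stimulated in medium for which no serum was named. Nothing in the labels says that the 3 libraries of a group came from separate cultures, so the p-values measure the spread between these libraries, which may be technical. The comparison asks which Wnt receptors the cells carried at the RNA level, and whether either agent changed them.

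In the canonical pathway a Wnt binds the cysteine-rich domain of a Frizzled and a co-receptor, LRP5 or LRP6, at the same time. The tail of the co-receptor is then phosphorylated, the complex that destroys β-catenin is inhibited, and β-catenin reaches the nucleus, where it acts with TCF/LEF factors on targets such as *Axin2*. Frizzleds also carry signals without β-catenin, some of them with ROR2, a receptor tyrosine kinase best known for binding WNT5A. The pathway restrains itself, because the ubiquitin ligases ZNRF3 and RNF43 remove Frizzleds from the surface and AXIN2 rebuilds the destruction complex. In developing sensory ganglia, Wnt/β-catenin signaling is known for its part in the formation of sensory neurons from the neural crest.

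Levels are FPKM, which corrects read numbers for the length of the gene and the size of the library. The libraries were scaled to 36920743 to 38842283 reads, a depth at which 3 reads on 1 kb amount to 0.0772 to 0.0813 FPKM. Whole read numbers could be recovered from the FPKM steps for 21556 of 21556 genes, and reads below are these recovered numbers. Of the 12 neuronal markers listed, only 4 (*Snap25*, *Nefl*, *Isl1* and *Uchl1*) had more than 3 reads in at least 1 library of every group. The other 8, among them the defining genes *Tubb3*, *Rbfox3* and *Prph*, averaged at most 0.0342 FPKM each, so most of the list was practically unread in this line. The summed level of the 12 was 105 to 114 FPKM in control, 111 to 122 with menthol, 114 to 122 with Wnt3a and 114 to 127 with both, and *Uchl1* (94.2 to 112 FPKM) and *Isl1* (9.28 to 17.6 FPKM) made up at least 98.8% of it in every library. All 7 fibroblast markers were also read, with a sum of 282 to 290 FPKM in control, 262 to 267 with menthol, 273 to 277 with Wnt3a and 260 to 266 with both, of which *Thy1*, which neurons also express, and *Col1a2* made up 93.6 to 94.5%. The glial gene *Sox10* and the leukocyte gene *Ptprc* stayed at 3 reads or fewer. The reads had been aligned to the rat genome, and how those from mouse transcripts were assigned is unknown, so each level covers an unknown mixture of the 2 species' transcripts.

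The regions upstream of 3 genes are shown, chosen by their values with Wnt3a. *Fzd1* and *Fzd4* were the members with the largest differences between libraries with and without Wnt3a, though neither passed the adjusted p with limma. *Axin2*, the reference target, rose. The 250 bases before the start site are given from RefSeq, build GRCr8, all on the plus strand, at chr4:30264824-30265073 for *Fzd1*, chr1:152692257-152692506 for *Fzd4* and chr10:94398535-94398784 for *Axin2*. Capitals mark a TCF core, for which CTTTGAA, the variant CTTTGAT, the variant CTTTGTA and the variant CTTTGTT were searched on both strands, including overlaps.
Fzd1: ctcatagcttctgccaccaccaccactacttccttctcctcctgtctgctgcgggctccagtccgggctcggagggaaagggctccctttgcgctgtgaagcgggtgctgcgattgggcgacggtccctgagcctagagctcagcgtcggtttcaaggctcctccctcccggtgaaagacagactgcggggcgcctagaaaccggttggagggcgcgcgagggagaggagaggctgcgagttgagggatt
Fzd4: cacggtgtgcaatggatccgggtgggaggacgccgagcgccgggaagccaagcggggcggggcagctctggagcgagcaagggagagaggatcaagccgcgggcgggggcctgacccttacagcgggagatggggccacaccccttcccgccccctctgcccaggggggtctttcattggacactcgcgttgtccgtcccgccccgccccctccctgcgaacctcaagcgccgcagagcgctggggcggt
Axin2: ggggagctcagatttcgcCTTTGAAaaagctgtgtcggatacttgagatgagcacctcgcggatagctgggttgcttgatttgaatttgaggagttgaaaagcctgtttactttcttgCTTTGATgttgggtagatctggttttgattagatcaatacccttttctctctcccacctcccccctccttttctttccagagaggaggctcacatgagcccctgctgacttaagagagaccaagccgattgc

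The *Axin2* stretch held 2 such cores, starting 232 and 132 bases before the start site, and the *Fzd1* and *Fzd4* stretches held none. RefSeq windows of 300 bases (250 before and 50 after the start site) were given for 6 of the 10 members (*Fzd1*, *Fzd4*, *Fzd5*, *Fzd7*, *Fzd8* and *Ror2*). Of these, the *Fzd7* window alone held a core, 1 copy of CTTTGAA starting 1 base before the start site. Such a core is common, since 17.1% of 33469 windows and 15.5% of 21851 protein-coding windows held at least 1. The cAMP response element TGACGTCA, searched likewise, lay in none of the 6 windows, against 1.83% of all windows. The members' windows were rich in G and C. GC content was 65.3% for *Fzd1*, 70.7% for *Fzd4* and 77.3% for *Ror2*, against a median of 55.0% over protein-coding windows and 45.7% for *Axin2*. These matches describe letters in a window and not binding, and any link to the changes in level was not tested.

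The results showed that the 2 co-receptors and *Fzd2* made up most of the summed level of these 10 genes. In control cells the level was 19.2 ± 0.521 FPKM (SD, n = 3) for *Lrp5*, 16.9 ± 0.0606 for *Lrp6* and 13.4 ± 0.685 for *Fzd2*. These 3 genes held ranks 3782, 4160 and 4904 among all genes. Next among the 7 Frizzleds described here were *Fzd7* at 3.46 ± 0.368 FPKM, *Fzd4* at 3.39 ± 0.160 and *Fzd6* at 3.30 ± 0.285. Their control libraries overlapped, so their order is not resolved. *Fzd1* followed at 2.36 ± 0.225 FPKM, *Fzd5* at 1.01 ± 0.201 and *Fzd8* at 0.567 ± 0.0203. Neighbours in this order other than *Fzd7*, *Fzd4* and *Fzd6* had control libraries that did not overlap. *Fzd3*, a Frizzled outside these 10 genes, was at 3.52 ± 0.186 FPKM in control.

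*Fzd2* (gene ID 64512), a receptor of the subfamily that also holds *Fzd1* and *Fzd7*, was the leading Frizzled in all 12 libraries. Its level was 12.7, 14.0 and 13.4 FPKM in the control libraries, 13.1, 14.6 and 14.3 with menthol, 13.8, 14.4 and 14.3 with Wnt3a, and 13.0, 15.0 and 15.8 with both. The 4 groups overlapped, and the level was 3.62 to 4.65 times that of *Fzd7* in the same library. It took 46.3 to 53.6% of the summed FPKM of the 7 Frizzleds, a sum that itself ranged only from 25.9 to 29.6 FPKM. The share of *Fzd1* was 7.55 to 9.50% in control and 6.62 to 9.13% with menthol, but 6.12 to 6.93% with Wnt3a and 6.10 to 6.94% with both, so that the libraries with Wnt3a and those without it overlapped in this share only between 6.62 and 6.94%. The share of *Fzd4* was 11.7 to 13.1% in control, 11.5 to 11.9% with menthol, 10.3 to 11.2% with Wnt3a and 8.65 to 10.9% with both, and here no library with Wnt3a reached a library without it. Shares describe composition and were not tested.

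**Figure D1:**
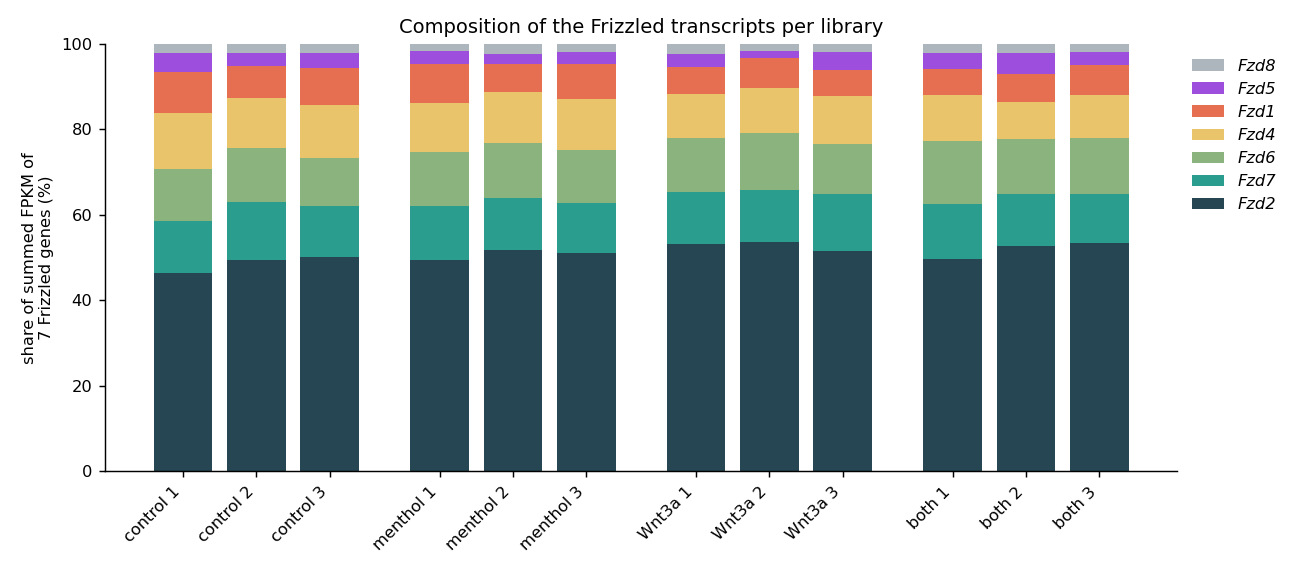
Stacked bars give the share of each of 7 Frizzled genes in their summed FPKM (%, y axis) for each of the 12 libraries (x axis; "both" is menthol with Wnt3a). *Fzd2* fills 46.3 to 53.6% of every bar, and the *Fzd4* band is at most 11.2% wide in the libraries with Wnt3a and at least 11.5% wide in those without.

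*Lrp5* (gene ID 293649) and *Lrp6* (gene ID 312781) encode the co-receptors whose phosphorylated tails bind Axin. *Lrp5* lay above *Lrp6* in 12 of 12 libraries, by 1.08 to 1.20 times. By reads the order was the reverse, with 3380 to 3864 for *Lrp5* and 4953 to 6093 for *Lrp6*, since FPKM divides by gene length. The summed level of both was 1.23 to 1.34 times that of the 7 Frizzleds together.

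*Ror2* (gene ID 306782) was practically unread. It had 0, 4 and 1 reads in the control libraries, 0 in each menthol library, 0, 0 and 4 with Wnt3a, and 0, 0 and 4 with both. It lay below the FPKM minimum for testing, and no fold change is given for it. Of the non-canonical tyrosine kinase receptors, the cells instead listed *Ryk* at 49.7 ± 0.273 FPKM and *Ptk7* at 23.7 ± 1.18 in control, and *Ror1* at 0.723 ± 0.0269.

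The spread between libraries differed among the members. Over all 12 libraries, differences between groups included, the coefficient of variation of *Fzd7* was 5.95%, close to the 5.22% that counting reads alone gives. It was 16.2% against 5.40% for *Fzd1* and 27.2% against 12.7% for *Fzd5*, which had only 31 to 94 reads per library. For *Lrp5*, the member with the smallest variation, it was 3.13% against 1.65%, and for *Lrp6* 4.52% against 1.33%. Within single groups it was 6.72 to 13.5% for *Fzd1*.

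**Figure D2:**
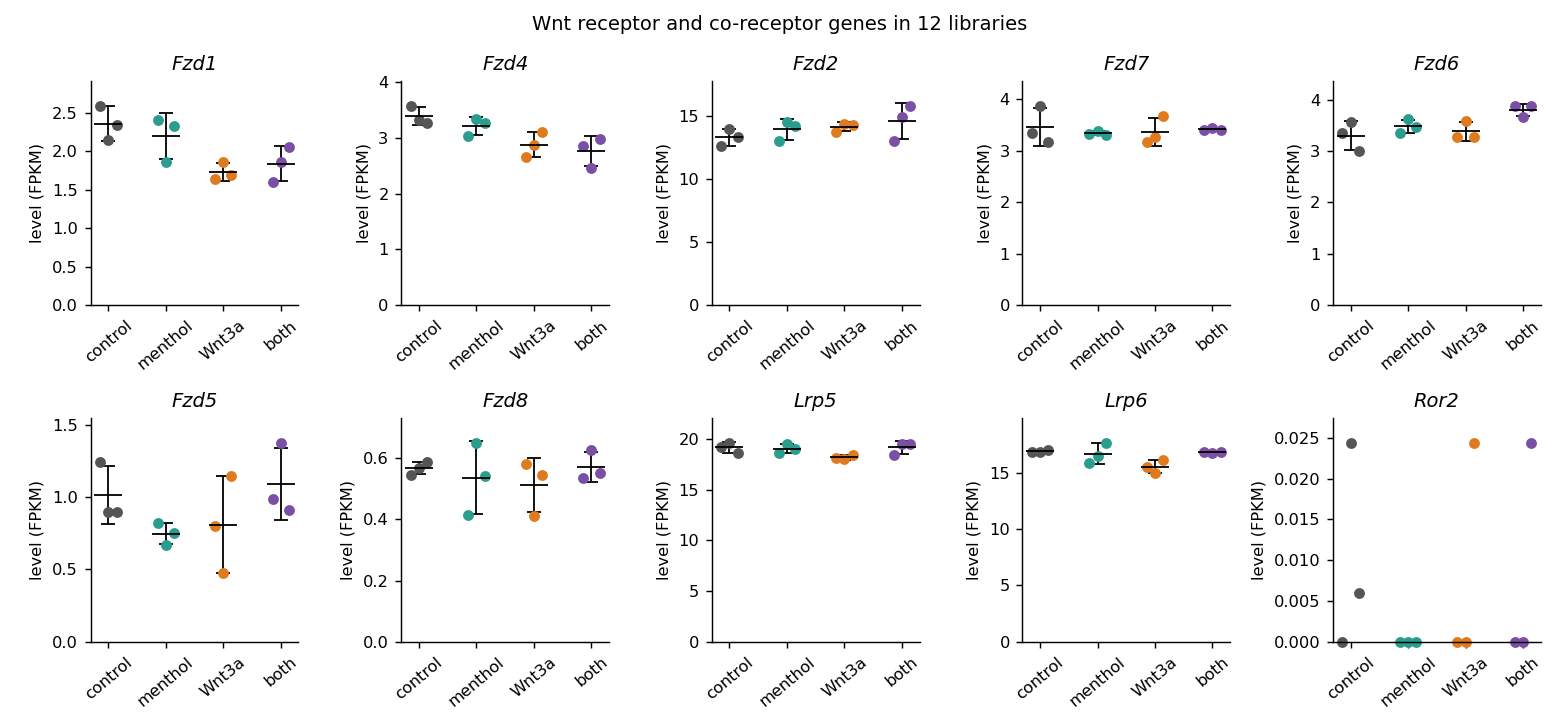
Each panel shows 1 gene, with its level in FPKM (y axis from 0, own scale) in the 3 libraries of each group (points; "both" is menthol with Wnt3a) and, except for *Ror2*, the mean and SD (bars). *Fzd1* and *Fzd4* are lower in the Wnt3a groups than in control without overlap, *Lrp5* and *Lrp6* have their lowest group means with Wnt3a alone, and *Ror2* is at 0 in 8 of the 12 libraries.

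The test was limma on log2(FPKM + 0.1), fitted to all 4 groups at once over the 11451 genes whose mean was at least 0.5 FPKM. The alternative named voom is limma on the recovered reads, which passed more genes in every comparison but the interaction. A gene passed at a Benjamini-Hochberg adjusted p under 0.05 over all tested genes. Fold changes are on this log2 scale, which understates the change of low genes. The filter left 9 of the 10 members, all but *Ror2*. As a check that Wnt3a had acted, *Axin2* was 5.07, 5.08 and 4.72 FPKM in control, 4.55, 5.19 and 5.28 with menthol, 6.56, 7.31 and 7.45 with Wnt3a, and 7.83, 8.71 and 8.37 with both. It rose in all 6 libraries with Wnt3a over all 6 without (log2 fold change 0.62, SE 0.0508, limma adjusted p = 4.17e-05). Of the 8 listed targets 4 were tested, and *Axin2* and *Tnfrsf19* (0.60, SE 0.0622, limma adjusted p = 0.000361) passed. The others, *Ccnd1* and *Tcf7*, were at 0.00 and 0.23 and did not pass. For Wnt3a against control alone, *Axin2* passed at a log2 fold change of 0.51 (limma adjusted p = 0.00875), but its adjusted p was 0.0563 without Wnt3a replicate 2, 0.0511 without control replicate 3 and 0.0529 with no FPKM minimum.

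For Wnt3a against control, the co-receptors and 2 Frizzleds were lower in every Wnt3a library than in any control library, but no member passed the adjusted p. *Fzd1* (gene ID 58868) was 2.59, 2.14 and 2.35 FPKM in control and 1.64, 1.87 and 1.70 with Wnt3a (log2 fold change −0.42, SE 0.120, limma adjusted p = 0.126). *Fzd4* (gene ID 64558), a receptor known also for the non-Wnt ligand Norrin, was 3.57, 3.33 and 3.28 FPKM in control and 2.66, 2.87 and 3.10 with Wnt3a (−0.23, SE 0.0877, limma adjusted p = 0.233). The groups did not overlap for either gene. *Lrp6* was 16.9, 16.9 and 17.0 FPKM in control against 15.5, 15.0 and 16.1 (−0.12, SE 0.0435, limma adjusted p = 0.199), and *Lrp5* was 19.3, 19.7 and 18.6 against 18.1, 18.0 and 18.5 (−0.08, limma adjusted p = 0.376). The lowest co-receptor values lay in Wnt3a replicate 2, the library with the fewest reads. Without it the *Lrp6* difference was −0.10 (limma adjusted p = 0.506).

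Counted over the members, 0 of 9 passed the adjusted p with limma for Wnt3a against control, where 0.437% of all tested genes passed. With an unadjusted p under 0.05 there were 3 of 9 (*Fzd1*, *Fzd4* and *Lrp6*), against 15.1% of all genes, and 4 of 9 had groups that did not overlap, against 20.2%. The median log2 fold change was −0.12 over the members and 0.00 over all tested genes. With voom 1 member passed, *Fzd1* at −0.44 (limma voom adjusted p = 0.0482), where 2.65% of all genes did. The summed fibroblast markers were also lower with Wnt3a than in control. The summed neuronal markers, nearly all *Uchl1* and *Isl1*, overlapped only at their edges. Of these, *Isl1* was higher in every Wnt3a library (14.1 to 17.6 FPKM) than in any control library (10.8 to 11.4). So was the low *Snap25* (0.353 to 0.606 against 0.135 to 0.311), while *Uchl1* and *Nefl* overlapped. In such bulk RNA, fewer cells of a type and less RNA per cell cannot be told apart, and the part of these markers in the result was not tested.

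Averaging over both menthol states sets 6 libraries with Wnt3a against 6 without. *Fzd1* was 1.60, 1.86 and 2.06 FPKM with both agents, and 2.41, 1.86 and 2.33 with menthol alone. All 6 libraries with Wnt3a lay below the median of those without, and 4 of 6 lay below all of them (log2 fold change −0.33, SE 0.0851, 95% interval −0.52 to −0.15, limma adjusted p = 0.0923). *Fzd4* was 2.86, 2.45 and 2.98 FPKM with both agents and 3.03, 3.34 and 3.28 with menthol alone, and 5 of 6 libraries with Wnt3a lay below all of those without (−0.22, SE 0.0620, interval −0.36 to −0.09, limma adjusted p = 0.121). Neither passed. With voom both did, *Fzd1* at −0.35 (limma voom adjusted p = 0.0244) and *Fzd4* at −0.23 (limma voom adjusted p = 0.0242), so their call differed between these tests.

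In this average, 0 of 9 members passed with limma, against 0.803% of all genes, and 2 with voom, against 2.44%. The same 2 members had an unadjusted p under 0.05, against 14.2% of all genes, and none had groups without overlap, against 1.17%. The other 7 members had intervals that included 0. Those of *Lrp5* (−0.09 to 0.02) and *Lrp6* (−0.12 to 0.01) were the narrowest, and that of *Fzd5* (−0.30 to 0.43) the widest. *Fzd7* (gene ID 100360552) was at 0.00 with an interval of −0.13 to 0.12, and *Fzd2* at 0.07 (−0.03 to 0.18).

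**Figure D3:**
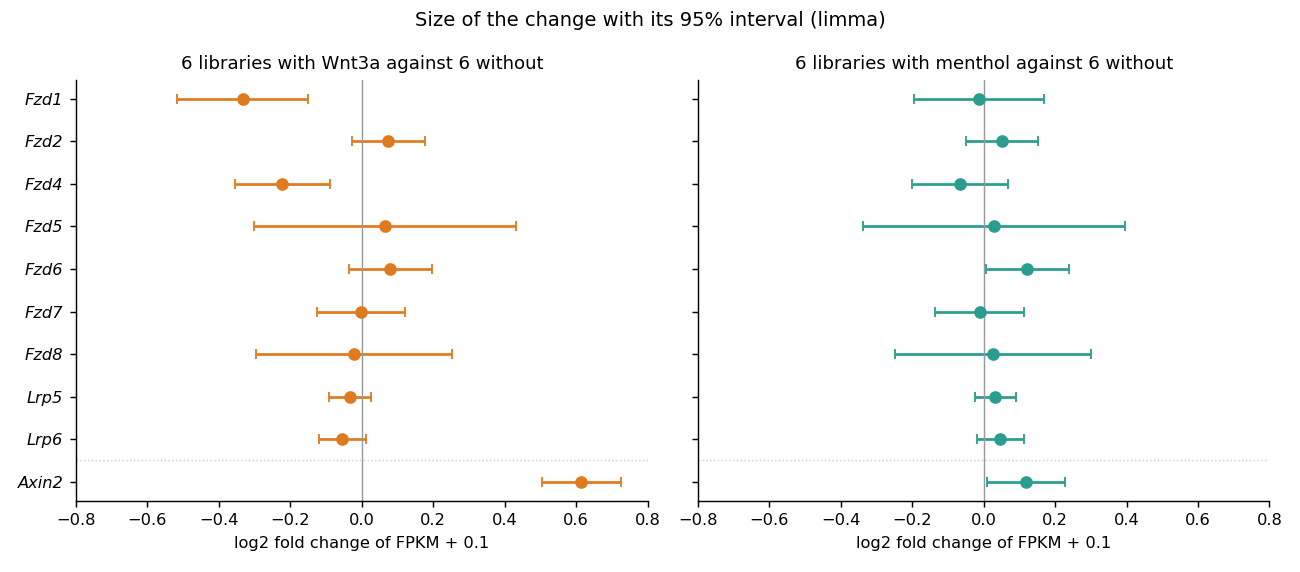
Points give the log2 fold change of FPKM + 0.1 (x axis) for 9 members and *Axin2*, with lines for the 95% interval from limma, for 6 libraries with Wnt3a against 6 without (left) and 6 with menthol against 6 without (right). On the left the intervals of *Fzd1* (−0.52 to −0.15) and *Fzd4* (−0.36 to −0.09) lie below 0 and that of *Axin2* above it, and on the right that of *Fzd6* (0.01 to 0.24) lies just above 0. No member passed the adjusted p.

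For menthol against control, the log2 fold changes of the 9 tested members ranged from −0.38 to 0.08. None of them passed, neither with limma, where 0.105% of all genes did, nor with voom, where 0.524% did, and 0 had an unadjusted p under 0.05, against 9.34%. *Fzd5* (gene ID 317674), which with *Fzd8* forms a close pair in the family, was the only member whose groups did not overlap, a pattern that 15.9% of all genes showed. It was 1.24, 0.896 and 0.898 FPKM in control and 0.818, 0.670 and 0.753 with menthol (log2 fold change −0.38, SE 0.241, limma adjusted p = 0.667). Its interval, −0.90 to 0.14, was the widest of the 9.

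Averaged over both Wnt3a states, 0 of 9 members passed for menthol, while 1.15% of all genes did with limma and 2.64% with voom. *Fzd6* (gene ID 282581), a receptor best known from planar cell polarity, was the only member with an unadjusted p under 0.05, as were 15.5% of all genes. Its level was 3.34, 3.56 and 2.99 FPKM in control, 3.36, 3.62 and 3.47 with menthol, 3.28, 3.59 and 3.27 with Wnt3a, and 3.87, 3.66 and 3.88 with both. All 6 libraries with menthol lay above the median of those without, and 4 of 6 above all of them (log2 fold change 0.12, interval 0.01 to 0.24, limma adjusted p = 0.293). None of the members had groups without overlap in this average, against 1.54% of all genes. The intervals of *Lrp5* (−0.02 to 0.09) and *Lrp6* (−0.02 to 0.11) were the narrowest. The summed fibroblast markers were lower in every menthol library than in any library without it, and their part in these values was not tested.

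With both agents against Wnt3a alone, the co-receptors were higher and lay near their control level, but no member passed. *Lrp6* was 16.9, 16.8 and 16.9 FPKM with both, above every library with Wnt3a alone (log2 fold change 0.12, limma adjusted p = 0.259). *Lrp5* was 18.5, 19.6 and 19.5 FPKM, also above them (0.07, limma adjusted p = 0.383). *Fzd6* was the other member whose groups did not overlap (0.17, limma adjusted p = 0.337). That gives 3 of 9 members without overlap, all higher, against 17.7% of all genes. An unadjusted p under 0.05 was met by 2 of 9 (*Fzd6* and *Lrp6*), against 14.5%, and the adjusted p by 0, against 0.0524% of all genes with limma and 1.25% with voom. Both this comparison and that of Wnt3a with control rest on the same 3 Wnt3a libraries. Without Wnt3a replicate 2 the *Lrp6* difference was 0.09 (limma adjusted p = 0.527), and without Wnt3a replicate 3 it was 0.14 (limma adjusted p = 0.143).

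Against menthol alone, cells given both agents had 4 of 9 members without overlap, *Fzd4* lower and *Fzd5*, *Fzd6* and *Fzd7* higher, against 11.3% of all genes. Groups without overlap could still lie close together, as for *Fzd7*, whose libraries were 3.34, 3.39 and 3.30 FPKM with menthol and 3.40, 3.44 and 3.40 with both (log2 fold change 0.03, limma adjusted p = 0.973). Of these members *Fzd4* alone had an unadjusted p under 0.05 (−0.21, limma adjusted p = 0.647), against 6.72% of all genes. None passed the adjusted p with limma or voom, against 0.0961% and 0.288% of all genes. The *Fzd4* difference was −0.13 without menthol+Wnt3a replicate 2 and −0.27 without menthol+Wnt3a replicate 3.

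Against control, cells given both agents had lower *Fzd1* (log2 fold change −0.35, limma adjusted p = 0.214) and *Fzd4* (−0.29, limma adjusted p = 0.155) and higher *Fzd6* (0.20, limma adjusted p = 0.250), each without overlap and with an unadjusted p under 0.05. *Lrp6* did not overlap either, but by only −0.01 on the log2 scale. These are 3 of 9 members against 13.5% of all genes, and 4 of 9 against 20.5%. With limma 0 of 9 passed the adjusted p, against 0.83% of all genes, while voom passed 1, *Fzd4* at −0.30 (limma voom adjusted p = 0.0427), and 2.28% of all genes.

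The interaction asks whether menthol shifted a gene by a different amount with Wnt3a than without. No gene passed it with limma (0%) or with voom (0%), and 6.99% of all genes had an unadjusted p under 0.05, as did 2 of 9 members. These were *Lrp6* (0.14, limma adjusted p = 0.715) and *Fzd5* (0.83, interval 0.09 to 1.56, limma adjusted p = 0.715). *Fzd5* was 0.798, 0.478 and 1.15 FPKM with Wnt3a and 0.987, 1.38 and 0.913 with both, and these groups overlapped. Its interaction was 0.53 without Wnt3a replicate 2 (limma adjusted p = 0.915) and 1.09 without Wnt3a replicate 3 (limma adjusted p = 0.295). *Fzd8* (gene ID 364754), at 0.412 to 0.651 FPKM over the 12 libraries, differed by 0.22 with an interval of −0.33 to 0.77. Between groups of 3, the intervals of the 9 members lay within −0.90 and 0.997 in the 5 pairwise comparisons, both ends being those of *Fzd5*.

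The genes around the receptors were taken from fixed lists, and none of their tested genes passed the adjusted p with limma or voom in any of the 8 comparisons. For Wnt3a averaged over both menthol states, 14.2% of all genes had an unadjusted p under 0.05. So did 2 of 7 helpers (*Atp6ap2* and *Porcn*), 2 of 5 ligands (*Wnt4* and *Wnt5a*) and 0 genes of the other 3 lists. For menthol averaged over both Wnt3a states it was met by 15.5% of all genes. Among them were 2 of 5 other receptors (*Fzd3* and *Ror1*), 1 helper (*Mesd*) and 2 ligands (*Wnt4* and *Wnt10b*). For Wnt3a against control it was met by *Fzd3* (log2 fold change −0.27), *Atp6ap2* and *Wnt5a*, against 15.1% of all genes. *Fzd3* and *Mesd* met it for both agents against Wnt3a alone (*Fzd3* at 0.39), against 14.5%. In the interaction *Fzd3* and *Ptk7* did, against 6.99%. Of 8 other receptors and co-receptors, 7 were in the table and 5 were tested. *Fzd3*, which pairs with *Fzd6* in the family, was 3.52 ± 0.186 FPKM in control, and *Fzd9* and *Musk* had 4 reads or fewer in every library. Of the turnover genes 2 of 9 were tested, *Lgr4*, a receptor for R-spondins (1.50 ± 0.169 FPKM), and the ligase gene *Znrf3* (1.48 ± 0.0264). Of 16 secreted or surface inhibitors 2 were tested, *Kremen1*, a receptor for DKK proteins, at 6.08 ± 0.576 FPKM and *Wif1* at 0.992 ± 0.166, and 5 of the 12 in the table stayed at 3 reads or fewer.

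Genes that help the receptors and their ligands were better represented, with 7 of 10 tested. *Mesd*, the chaperone that folds LRP5 and LRP6, was 94.9 ± 0.955 FPKM in control, and *Atp6ap2*, an adaptor between LRP6 and the proton pump, was 76.4 ± 3.46. *Reck* and *Adgra2*, a pair that works on WNT7 signals, were read at 11.4 ± 0.577 and 6.48 ± 0.0746 FPKM. Of 18 Wnt ligand genes listed, 12 were in the table and 5 were tested. *Wnt7b* led with 20.4 ± 0.685 FPKM and *Wnt10b* followed with 12.4 ± 0.405, levels like those of *Lrp5* and *Fzd2*, while *Wnt5a* was at 1.12 ± 0.0503.

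**Figure D4:**
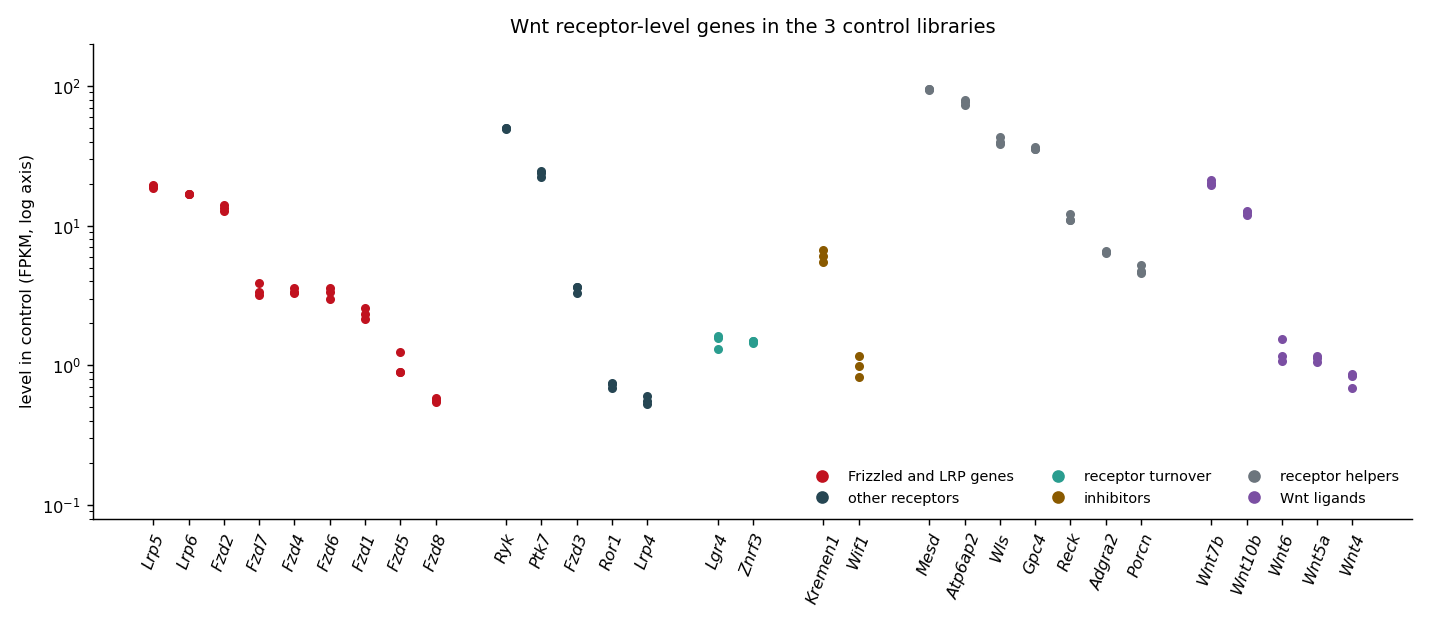
Points are the 3 control libraries, with the level in FPKM on a log axis (y) for the 9 tested members and the tested genes of 5 pathway lists (x), coloured by list. *Mesd* (94.9 FPKM) and *Atp6ap2* (76.4) stand highest, *Lrp5*, *Lrp6* and *Fzd2* lie between 13.4 and 19.2, and *Fzd8* (0.567) is the lowest member shown.

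As no member passed, the genes nearest in pattern were sought for *Lrp5*, the member with the highest control level. By the Euclidean distance of the 12 centred log2 values, *Sec61a1* (0.0589), *Mprip* (0.0682) and *Ap3d1* (0.0699) were nearest, where the median distance of all tested genes was 0.317. The distance of *Lrp5* from a flat profile was 0.149. This is a description over 12 libraries of 4 groups and was not tested.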

How the data were processed

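ND7/23 RNA was measured in 12 libraries, 3 per group, and groups and replicate numbers were taken from the sample labels. Per the labels, RNA was extracted with TRIzol and paired-end reads were made from VAHTS Universal V6 libraries. By the study's methods and the submitters' processing notes, reads were filtered with fastp, aligned with HISAT to mRatBN7.2 and counted per gene with HTSeq-count. The deposited values are FPKM, computed by the authors for 21556 genes without pooling of replicates. FPKM is a share of the library, so a rise of abundant genes lowers all others. The authors' own comparisons used DESeq2 and were not used here.

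The main test was limma 3.58.1 (R 4.3.3), with a variance trend and without a replicate block, on log2(FPKM + 0.1) of the 11451 genes averaging at least 0.5 FPKM, and p-values were adjusted over all of them by the Benjamini-Hochberg method. All 4 groups shared 1 fit, and no sample was dropped. Comparisons that share libraries are not independent. Read numbers were recovered from the FPKM steps (largest distance from a whole number 1.16e-10, tolerance 1e-08), and cover counting error only. The recovery and the test were checked on simulated data. Alternatives were pseudocounts of 0.01 and 1, a minimum of 1 FPKM or none, median centring, a replicate block, limma voom on the recovered reads with the library totals, fits of the 2 groups compared, a 2-fold threshold, and leaving out each library. Same-numbered libraries did not deviate together (correlation of deviations −0.06 to 0.15, median 0.01, over 0.1 in 1 of 18 pairs), so the numbers were not taken as pairs.

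The genes named are all 10 members, and from each pathway list those past the adjusted p and the 2 with the highest control level. Also named are, after their values were seen, *Fzd3*, *Fzd9*, *Musk*, *Ror1*, *Reck*, *Adgra2*, *Wnt5a*, *Tcf7*, *Porcn* and *Wnt4*. The members and lists were chosen with earlier results of these data known. Promoter sequences are from RefSeq for GRCr8, not the build of the files, and a script found the motifs.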

Additional observations from a re-analysis of the deposited data

How the results depend on the processing

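The number of members past the adjusted p was 0 in each of the 8 comparisons, and it stayed at 0 in 162 of 165 recomputed counts. The 3 exceptions all came from limma voom on the recovered reads, which passed 1 member when Wnt3a was set against control, 1 when both agents were, and 2 for Wnt3a averaged over both menthol states, and the cause was not tested. With the replicate block no member passed either, and *Fzd1* in the averaged Wnt3a comparison was at −0.33 (limma adjusted p = 0.0955). Its adjusted p ranged from 0.0618 to 0.219 when 1 library was left out, and that of *Fzd4* from 0.0747 to 0.260, in both cases highest without control replicate 1. The calls over all tested genes moved much more. Main limma against voom, they numbered 12 and 60 for menthol against control, 50 and 303 for Wnt3a, 6 and 143 for both agents against Wnt3a, 11 and 33 against menthol, 95 and 261 against control, 92 and 279 for averaged Wnt3a, and 132 and 302 for averaged menthol. With no FPKM minimum these 7 counts were 2, 9, 0, 2, 60, 57 and 85, and with the replicate block 21, 50, 24, 10, 115, 135 and 157. Leaving out 1 library gave 6 to 291 genes for Wnt3a against control (6 without control replicate 3, 291 without Wnt3a replicate 3), 55 to 151 for averaged Wnt3a and 52 to 143 for averaged menthol.

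Of 791 recomputed fold changes, 762 kept their direction and their side of the threshold, 7 changed side and 22 changed sign. All sign changes came from leaving out 1 library, in values near 0. For Wnt3a averaged over both menthol states they ranged from −0.0680 to 0.210 for *Fzd5*, −0.0339 to 0.0383 for *Fzd7* and −0.0939 to 0.0434 for *Fzd8*. For menthol averaged over both Wnt3a states they ranged from −0.0526 to 0.0428 for *Fzd1*, −0.116 to 0.162 for *Fzd5*, −0.0419 to 0.0291 for *Fzd7* and −0.0390 to 0.0983 for *Fzd8*. With a minimum of 1 FPKM, *Fzd5* and *Fzd8* were not tested, and *Ror2*, at 0 to 4 reads, was too shallow for any comparison. The difference of *Fzd5* with both agents against menthol, whose interval ended at 0.997, was 0.48 (SE 0.242), and 0.53 (SE 0.275) with voom. Over the alternatives it ranged from 0.25 to 0.59. It was 0.31 without menthol+Wnt3a replicate 2 and 0.59 without menthol+Wnt3a replicate 3.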
